A study of Homo sapiens with 3 samples.

Results

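Splicing factor and hnRNP genes were followed across 3 Affymetrix arrays of RH30 cells, an established alveolar rhabdomyosarcoma line, a tumour of the skeletal muscle lineage. The genes were taken by symbol: heterogeneous nuclear ribonucleoproteins (HNRNP), serine/arginine-rich splicing factors (SRSF), proteins of the small nuclear ribonucleoproteins (SNRP), subunits of SF3A and SF3B, both subunits of U2AF, and pre-mRNA processing factors (PRPF). They numbered 57 of the 11963 genes that some probe set names alone, and were measured by 123 of 22215 gene probe sets. The probe set of 1 pseudogene and 19 probe sets that name several genes were kept apart. The anti-MYCN PNA cells had received 10 µM of a peptide nucleic acid, a synthetic nucleic acid built on an amide backbone, directed at the MYCN gene. The mutated PNA cells had received 10 µM of a PNA of altered sequence described as lacking activity, and the untreated cells had received none. All RNA was taken at 12 hours from cells in serum-containing medium, with 1 array per condition, so no value has a replicate error and no difference has a test. Nothing states whether the cultures were independent, and RH30 is a single line. For 1 array the title and treatment text give untreated cells, whereas the source name gives mutated PNA. The array is taken as untreated, and every direction that involves 1 control alone rests on that label.

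Pre-mRNA splicing removes introns in a large complex, the spliceosome, that assembles on each intron. The U1 particle recognises the 5′ splice site, U2AF and SF1 recognise the 3′ end of the intron, and U2 with its SF3A and SF3B subunits then settles on the branch site before the U4/U6.U5 tri-snRNP joins. SR proteins mostly promote the use of exons they bind, and hnRNP proteins coat nascent RNA and often oppose them. Many genes of both families carry extra exons with premature stop codons and alternative 3′ ends through which they limit their own mRNA, so that several probe sets of a gene need not report one transcript. RNA processing genes are also known in other cells to depend on MYC-family factors, which bind the E-box CACGTG.

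The promoters of 5 genes are shown first because MYC-family factors are known to bind this E-box, and the E-box is in capitals. The 4 with the motif are the lowest and the highest of the genes that have it, by the median over their probe sets. Those in the middle are not shown. The windows run from 250 bases before to 50 bases after the start of each gene, from RefSeq on GRCh38.p14. HNRNPA3 and SF3B1 have the motif and were below both controls on all 7 of their probe sets compared, 4 of them at least 1.5-fold. HNRNPDL has it and was lower on all its probe sets compared by less than the threshold used. HNRNPUL1 has it and was higher on both, though between the controls with arrays scaled to a common median, and SRSF11 lacks it although it was among the lowest of all. The windows lie at chr2:177212544-177212843 on the plus strand for HNRNPA3, chr2:197434979-197435278 on the minus strand for SF3B1, chr4:82430176-82430475 on the minus strand for HNRNPDL, chr19:41262307-41262606 on the plus strand for HNRNPUL1 and chr1:70221130-70221429 on the plus strand for SRSF11.
HNRNPA3: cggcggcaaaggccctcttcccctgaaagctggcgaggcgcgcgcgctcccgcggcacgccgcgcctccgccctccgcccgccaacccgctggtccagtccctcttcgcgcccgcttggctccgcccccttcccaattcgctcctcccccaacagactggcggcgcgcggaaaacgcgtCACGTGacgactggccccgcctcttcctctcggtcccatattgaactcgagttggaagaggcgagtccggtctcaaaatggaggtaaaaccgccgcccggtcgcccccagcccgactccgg
SF3B1: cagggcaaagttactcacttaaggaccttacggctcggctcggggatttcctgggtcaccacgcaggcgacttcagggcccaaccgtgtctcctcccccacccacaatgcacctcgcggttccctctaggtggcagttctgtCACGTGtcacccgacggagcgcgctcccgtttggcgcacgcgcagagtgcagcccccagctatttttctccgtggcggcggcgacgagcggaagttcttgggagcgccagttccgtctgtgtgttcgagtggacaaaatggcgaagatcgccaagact
HNRNPDL: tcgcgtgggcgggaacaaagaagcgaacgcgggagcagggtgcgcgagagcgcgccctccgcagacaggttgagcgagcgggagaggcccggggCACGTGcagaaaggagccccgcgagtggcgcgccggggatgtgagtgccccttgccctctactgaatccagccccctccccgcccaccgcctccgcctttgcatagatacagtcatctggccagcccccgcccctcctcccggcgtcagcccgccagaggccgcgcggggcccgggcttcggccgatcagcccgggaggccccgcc
HNRNPUL1: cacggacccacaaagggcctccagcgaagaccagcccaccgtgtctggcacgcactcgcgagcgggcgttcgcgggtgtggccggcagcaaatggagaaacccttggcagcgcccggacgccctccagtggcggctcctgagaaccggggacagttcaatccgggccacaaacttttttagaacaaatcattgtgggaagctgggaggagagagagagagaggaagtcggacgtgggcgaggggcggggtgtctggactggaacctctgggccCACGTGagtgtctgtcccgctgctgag
SRSF11: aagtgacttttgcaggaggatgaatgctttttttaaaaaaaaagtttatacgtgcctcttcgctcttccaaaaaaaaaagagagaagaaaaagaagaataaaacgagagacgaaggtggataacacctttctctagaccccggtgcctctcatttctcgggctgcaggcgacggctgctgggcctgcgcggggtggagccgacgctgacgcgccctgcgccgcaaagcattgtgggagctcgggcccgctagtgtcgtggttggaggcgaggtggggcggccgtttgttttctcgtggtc

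The motif, which reads the same on both strands, begins 71 bases before the start in HNRNPA3, 108 before it in SF3B1, 156 before it in HNRNPDL and 23 after it in HNRNPUL1. Of the 57 genes, 52 had a promoter in the table and 7 of these (13.5%) held CACGTG, against 7.26% of all 35116 promoters and 11.1% of those of genes compared on the array. The other three with the motif were HNRNPD, HNRNPH3 and HNRNPM. The share among splicing genes was thus near that of all genes compared. The 7 genes with the motif had gene medians of the log2 difference to the mean of the controls from -0.68 in SF3B1 to 0.21 in HNRNPUL1. Those of HNRNPH3, HNRNPD and HNRNPM, whose promoters are not shown, were -0.14, -0.09 and 0.05. The median over the 7 genes with the motif was -0.14, against 0.03 over the 45 genes without it. Lower calls came from 2 of the 7 and from 5 of the 45, and SRSF11, with the lowest gene median of -1.12, had no CACGTG in its window. HNRNPA1 and PRPF39 also had lower calls but no promoter in the table, so neither side counts them.

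The whole arrays were alike in scale but not in every control. Their 2% trimmed means were equal at 500.2. Probe sets with a mean signal of at least 117, the pooled median, were compared when they name 1 gene, 9899 in all. For 95% of them the controls lay within 0.59 log2 units of each other, close to the 1.5-fold used as threshold here, and for 95% of the 115 splicing probe sets compared within 0.36. By signal, that range over all was 0.71 for probe sets of mean signal from 117 to 529 and 0.41 for brighter ones. All 24 probe sets for the bacterial RNAs of the poly-A control were lower on the anti-MYCN PNA array, with a median ratio of 0.382 to mutated PNA and 0.410 to untreated. The ratio of 3′ to 5′ probe sets of beta-actin was 1.99 in anti-MYCN PNA, 1.73 in mutated PNA and 2.11 in untreated cells. That of GAPDH was 1.09, 1.02 and 1.02 in the same order. Of 12 myogenic markers 10 passed the filter, such as MYOD1 at 7834, 6265 and 6715 in the same order, and MYH3 and CHRND did not. The summed signal of the 12 was 57122 in anti-MYCN PNA, 43916 in mutated PNA and 42497 in untreated cells. The sum weighs bright markers most, and ACTC1 alone read 27505, 19864 and 17091. Of the markers past the filter, ACTC1, CDH15, DES, FGFR4, MYOD1, PAX3 and TNNT1 were above both controls. CHRNA1, FOXO1 and MYOG lay between the controls, and CHRND, which did not pass, was below both. No endothelial marker (of 4) and no leukocyte marker on the array (of 5) passed, and KRT18 alone did among 6 epithelial ones. The part of the poly-A, 3′ to 5′ and marker values in the results was not tested. MYCN, the targeted gene, read 2202 in anti-MYCN PNA, 2803 in mutated PNA and 3313 in untreated cells on its one probe set past the filter. Its smaller log2 difference was -0.35.

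SRSF11, HNRNPA3, SRSF10, SRSF3 and SF3B1 were the genes furthest below both controls in anti-MYCN PNA cells, and few splicing genes lay far above. Of 115 probe sets compared, 12 of 9 genes were at least 1.5-fold lower than both controls and 2 of 2 genes at least 1.5-fold higher, where the smaller of the 2 log2 differences decides. That is 10.4% lower, against 8.06% of all probe sets compared, and 1.74% higher, against 8.07%. The lower share was near the background here and the higher share below it. With arrays scaled to a common median, 25 probe sets were lower (21.7%) and 0 higher, against 15.0% and 3.65% of all, and the median of all probe sets compared moved to -0.15. Without probe sets of the suffixes _x_at and _s_at, 7 of 39 were lower (17.9%) and 0 higher, against 9.52% and 8.27% of all. Splicing probe sets are also brighter than most, with a median mean signal of 1983. Among those of at least the pooled 75th percentile of signal (529), 8 of 95 were lower (8.42%) and 0 of 95 higher, against 7.07% and 4.5% of all 4910 such probe sets. By any size 54 of these 95 were below both controls (56.8%), against 43.9% of all such probe sets. At 2-fold, 4 were lower (3.48%) and none higher, against 1.64% and 1.18% of all. The 2 differences share the anti-MYCN PNA array. Smaller shifts were common, and 65 probe sets were below both controls by any size (56.5%) and 35 above (30.4%), against 39.3% and 45.8% of all. Relative to mean control signal the median log2 difference came to -0.12, against 0.04 for all probe sets compared.

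**Figure D1:**
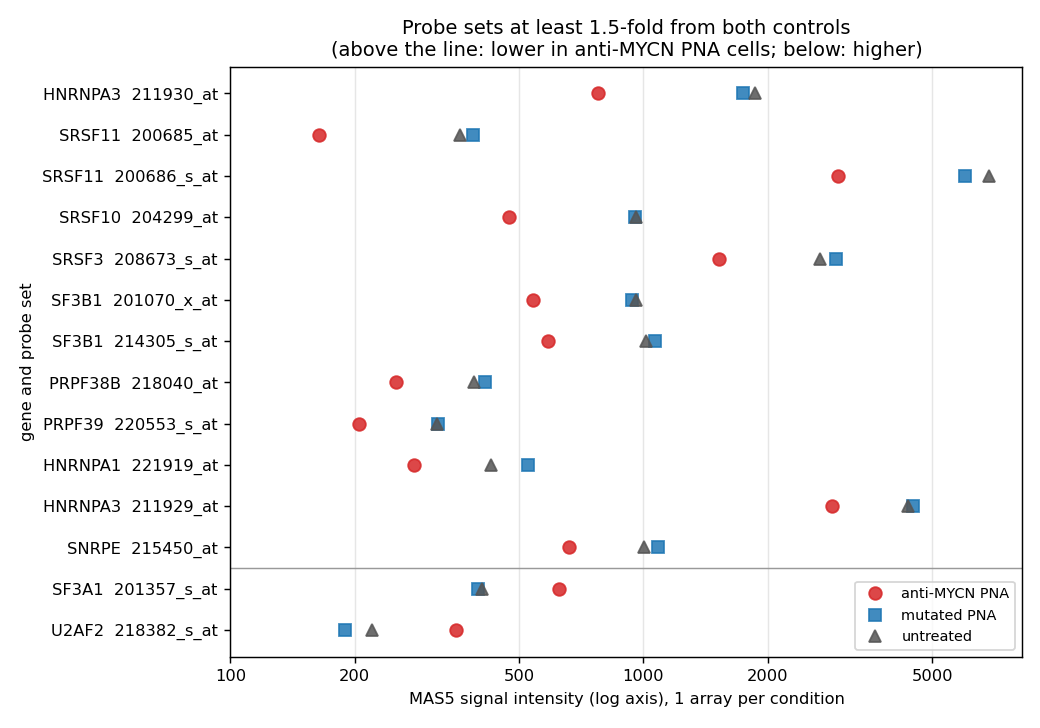
MAS5 signal (log axis) of the 14 probe sets at least 1.5-fold from both controls, with 1 point per array: circles for anti-MYCN PNA, squares for mutated PNA and triangles for untreated cells. In the 12 upper rows the circle lies left of both other points, and in the 2 lowest rows, SF3A1 and U2AF2, it lies right of them.

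Of the 14 calls, 7 lay within 0.1 of the threshold, and 8 further probe sets lay as close below it, 7 lower and 1 higher. The called probe sets of PRPF38B, PRPF39, HNRNPA1, SF3A1 and U2AF2 had mean signals under 529. Their smaller differences, 0.62 to 0.68 in size, were less than the 0.71 that spans 95% of control differences at such signals. SRSF11 on 200685_at was also under 529 and exceeded that range at -1.13. The call is therefore a mark of size among graded values. Between mutated PNA and untreated cells, by contrast, 1 splicing probe set was at least 1.5-fold apart in the lower direction (0.87%) and none in the higher, against 2.51% and 2.65% of all. That difference had a median of -0.01 and an SD of 0.17 over splicing probe sets, against -0.00 and 0.30 over all. Bright probe sets differ less between the controls. Past the 75th percentile of signal 0 of 95 splicing probe sets were called, against 0.611% lower and 0.692% higher of all. The SD there was 0.13, against 0.20 of all. Against mutated PNA alone, anti-MYCN PNA cells had 14 splicing probe sets lower and 4 higher, where 11.4% and 12.9% of all probe sets were called. Against untreated alone they had 15 lower and 5 higher, where 11.6% and 12.7% of all were called.

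**Figure D2:**
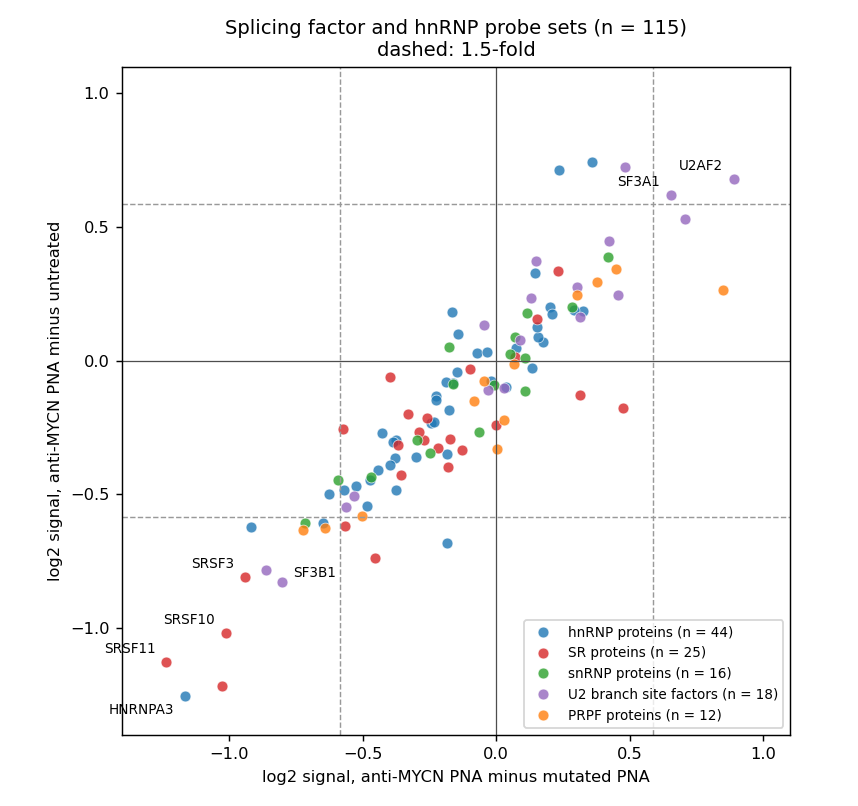
Log2 difference of anti-MYCN PNA to mutated PNA (horizontal) and to untreated (vertical) for the 115 splicing factor and hnRNP probe sets, coloured by role group. Both axes share the anti-MYCN PNA array, dashed lines mark 1.5-fold, and the lower left corner holds 12 probe sets and the upper right corner 2.

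SR proteins bind exons through RNA recognition motifs and recruit the spliceosome through their serine/arginine tails. Their 25 probe sets, of 9 genes, had a median log2 difference of -0.27 to the mean of the controls, against 0.04 over all probe sets. In mutated PNA against untreated cells their median was -0.03. Of the 25, 20 were below both controls by any size (80.0%) and 3 above (12.0%), against 39.3% and 45.8% of all probe sets. At 1.5-fold 4 were lower (16%) and none higher, against 8.06% and 8.07% of all. Those 4 belong to 3 genes, so the count is small. The number below both was 18 with quantile normalization and 22 with scaling to a common median. Left out of these counts are SRSF2 and SRSF9, whose probe sets name several genes. SRSF2 had probe sets on both sides and SRSF9 was below both controls, as given further on.

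SRSF11, an SR-related protein also called p54 that works at the 3′ splice site, was the most strongly lower of them. Probe set 200686_s_at read 2954 in anti-MYCN PNA cells, 6015 in mutated PNA and 6864 in untreated cells, or 49.1% and 43.0% of the controls. Probe set 200685_at read 164, 386 and 359 in the same order, and 213742_at read 255, 320 and 293. All 3 were below both controls, with smaller log2 differences of -1.03, -1.13 and -0.20, and 2 of them by more than 2-fold. The 2-fold differences were found on a bright and a dim probe set alike.

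SRSF10, which in its dephosphorylated form represses splicing in heat shock and mitosis, was measured by 4 probe sets. Probe set 204299_at read 474 in anti-MYCN PNA, 954 in mutated PNA and 961 in untreated cells. The controls there were within 0.01 of each other on the log2 scale, and the smaller difference was -1.01. Probe set 206095_s_at read 1443, 2134 and 2218, just short of the threshold at -0.56. The 2 probe sets with the suffix _x_at, whose probes can match other transcripts, read 1324, 1449 and 1671 and 1707, 1707 and 2019. Both of these were close to mutated PNA and further from untreated, so SRSF10 was low on 2 of its probe sets and nearly level with mutated PNA on the others.

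SRSF3, the smallest of the classical SR proteins, which limits its own mRNA through a poison exon, was below both controls on all 3 probe sets. Probe set 208673_s_at read 1527 in anti-MYCN PNA, 2927 in mutated PNA and 2680 in untreated cells, with a smaller difference of -0.81. The brighter 208672_s_at and 202899_s_at read 7597, 9801 and 9468 and 7039, 8597 and 8479, with smaller differences of -0.32 and -0.27. The direction was therefore shared and the size was not.

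SRSF7, also an autoregulated SR protein, read 1342 in anti-MYCN PNA, 1838 in mutated PNA and 2239 in untreated cells on probe set 201129_at, and 6252, 7089 and 8242 on 214141_x_at. Probe set 213649_at was lower as well, at 1572, 1880 and 1824, and the dim 211439_at read 138, 99.2 and 156, between the controls. The founding member SRSF1 read 6064, 7769 and 8157 on 211784_s_at, a smaller difference of -0.36. Its probe set 208863_s_at read 2623, 2109 and 2870, inside the range of the controls. SRSF6 was lower on both probe sets, by -0.22 and -0.26. SRSF4 was level at 3381, 3218 and 3353. SRSF5 and SRSF8 had 1 probe set each above both controls, 212266_s_at at 3216, 2740 and 2551 and 214789_x_at at 799, 719 and 718, and another below both. Neither SRSF5 nor SRSF8 was called.

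The 44 probe sets of 18 hnRNP genes had a median log2 difference of -0.18 to the mean of the controls and 0.02 in mutated PNA against untreated. At 1.5-fold 3 were lower (6.82%) and none higher, so the lower share was near the 8.06% of all. By any size 27 were below both controls (61.4%) and 11 above (25%), against 39.3% and 45.8% of all. With only the brightest probe set of each gene the hnRNP median was 0.03. Taking 1 median value per gene it was -0.07, and past the 75th percentile of signal it was -0.16. HNRNPA3, a member of the A/B family that takes part in the transport of RNA, was the lowest. Its probe set 211930_at read 778 in anti-MYCN PNA, 1744 in mutated PNA and 1858 in untreated cells, or 44.6% and 41.9% of the controls. Probe set 211929_at read 2863, 4486 and 4362, and 211932_at read 1583, 2351 and 2217. Their smaller log2 differences were -1.16, -0.61 and -0.49, so HNRNPA3 was lower on every probe set that names it alone.

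Of 3 further probe sets shared by HNRNPA3 and its pseudogene, 211931_s_at and 211933_s_at were also below both controls, by -0.38 and -0.22. The third, 206809_s_at, read 1471, 1472 and 1512 and was level. HNRNPA1, among the most abundant hnRNP proteins, which opposes SR proteins in splice site choice, was lower on 3 probe sets that name it alone. Probe set 221919_at read 278 in anti-MYCN PNA, 525 in mutated PNA and 428 in untreated cells, 222040_at read 401, 540 and 484, and 214280_x_at read 3912, 4574 and 4284. In contrast, 2 probe sets shared with HNRNPA1 pseudogenes were above both controls. Probe set 200016_x_at read 23593, 21251 and 21176, and 213356_x_at read 24510, 19847 and 19435. No single direction can therefore be given for HNRNPA1.

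HNRNPDL and HNRNPR were the other hnRNP genes lower on every probe set compared, none past the threshold. HNRNPDL, a paralogue of HNRNPD that regulates its own mRNA by splicing of its 3′ untranslated region, had smaller differences from -0.23 to -0.47 on 4 probe sets. HNRNPR, which is close in sequence to SYNCRIP, read 5207 in anti-MYCN PNA, 7076 in mutated PNA and 6907 in untreated cells on 208766_s_at, a difference of -0.41, and 3223, 4207 and 3980 on 208765_s_at. HNRNPA2B1, a reader of RNA sorting signals measured by 1 probe set, was level at 12149, 12768 and 11924. HNRNPAB and HNRNPF, of which HNRNPF binds G-rich RNA, were above both controls by 0.07 and 0.19 on 1 probe set each. HNRNPL, which binds CA-rich RNA, was above both controls on 35201_at at 1111, 867 and 664, the hnRNP probe set furthest above by the smaller difference of 0.36. The controls themselves differed by 0.38 there, and its other probe set, 202072_at, was lower at 166, 195 and 194. HNRNPUL2 was above both at 272, 231 and 166, with the controls 0.48 apart. HNRNPUL1 was above both on 2 probe sets by 0.15 and 0.18. Under scaling to a common median 3 of the 44 hnRNP probe sets were above both controls and 37 below, and HNRNPAB, HNRNPF and HNRNPUL1 were no longer above.

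**Figure D3:**
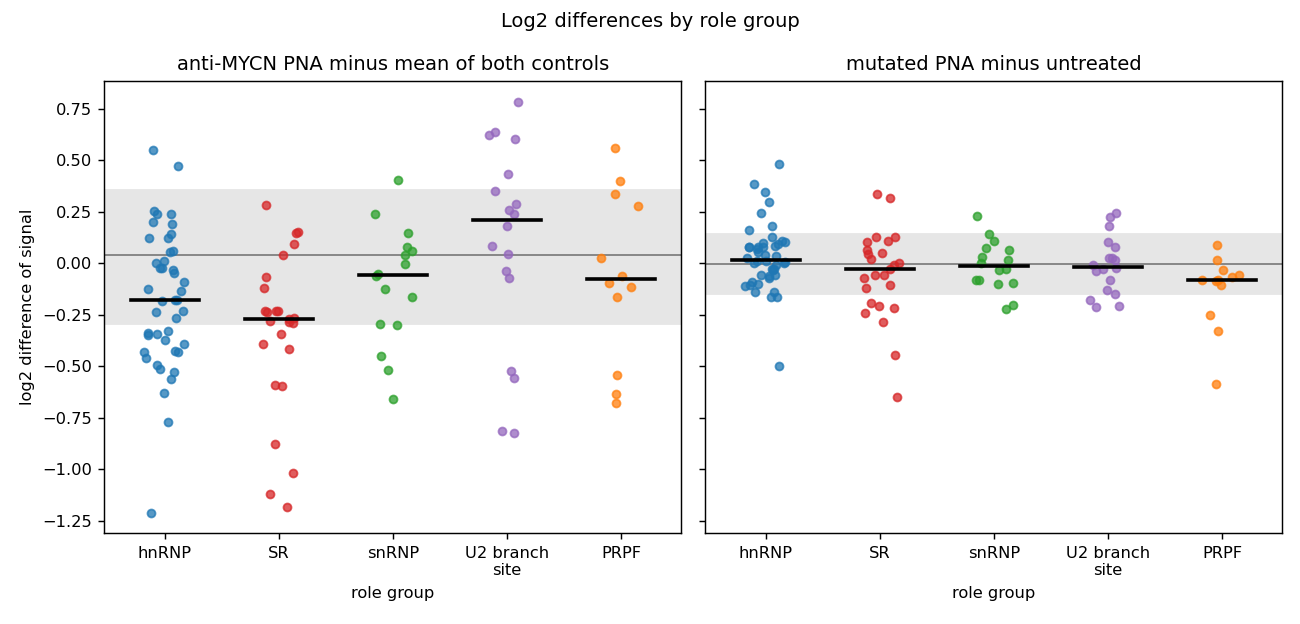
Log2 difference of signal by role group, on the left for anti-MYCN PNA minus the mean of both controls and on the right for mutated PNA minus untreated, with 1 point per probe set and a black bar at each median. Grey bands span the quartiles of all 9899 probe sets compared and the grey line their median: on the left the SR median lies at -0.27 and the U2 branch site median at 0.21, and on the right all 5 medians lie between -0.08 and 0.02.

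SNRP genes encode the Sm ring common to spliceosomal snRNPs and proteins of the U1 and U2 particles. Their 16 probe sets, of 11 genes, had a median log2 difference of -0.06, with 1 lower call (6.25%) and none higher, against 8.06% and 8.07% of all probe sets. That call was SNRPE, an Sm ring protein, on probe set 215450_at at 660 in anti-MYCN PNA, 1083 in mutated PNA and 1004 in untreated cells. The brighter SNRPE probe set 203316_s_at read 9414, 10532 and 10011, a smaller difference of -0.09, so the call rested on 1 of 2 probe sets. SNRPD1, a further Sm protein, was lower on both its probe sets, by -0.30 and -0.43, and SNRPB2, of the U2 particle, read 3153, 4750 and 4301. SNRPA, the U1 protein that contacts a stem loop of U1 RNA, was the furthest above at 4539, 3392 and 3467, a difference of 0.39. SNRPA1 was below both controls on 206055_s_at and 215722_s_at, by -0.25 and -0.06, and between them on 216977_x_at. SNRPB, SNRPC, SNRPD2, SNRPD3, SNRPF and SNRPG were between the controls or within 0.20 of the nearer one. Under scaling to a common median 2 of the 16 probe sets were above both controls, SNRPA among them, and 14 below.

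The U2 branch site factors were split by subunit. Over 18 probe sets of 10 genes the median log2 difference was 0.21, with 2 higher and 2 lower calls (11.1% each), both shares near the 8.07% and 8.06% of all. Under scaling to a common median the group median was 0.02. SF3B1, the large scaffold of SF3B that clamps the branch site helix and is mutated in blood cancers, was lower on all 4 probe sets. It read 588 in anti-MYCN PNA, 1068 in mutated PNA and 1013 in untreated cells on 214305_s_at, and 539, 940 and 958 on 201070_x_at. The brighter 201071_x_at read 4024, 5824 and 5720 and 211185_s_at read 3371, 4974 and 4927. Their smaller differences were -0.78, -0.80, -0.51 and -0.55, and the controls lay within 0.08 of each other on each. SF3B1 thus gave the closest set of values among the genes with a lower call and over 1 probe set, with a range of 0.30.

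The SF3A subunits, which tether SF3B to the U2 core, lay on the other side. SF3A1 read 624 in anti-MYCN PNA, 397 in mutated PNA and 407 in untreated cells on 201357_s_at, a smaller difference of 0.62, and was above both controls on its 2 other probe sets by 0.28 and 0.15. SF3A2 was above both on 37462_i_at at 490, 300.1 and 339 and on 209381_x_at at 263, 188 and 159, differences of 0.53 and 0.48. SF3A3 read 2065, 1661 and 1844. SF3B2, the SF3B subunit that crosslinks to pre-mRNA near the branch site, read 2682, 2001 and 1969, a difference of 0.42. All 6 SF3A probe sets were therefore above both controls, where 45.8% of all probe sets were, with 1 called. Under scaling to a common median 4 of the 6 were above both, with SF3A3 and 1 of SF3A1 between the controls.

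U2AF2, which binds the polypyrimidine tract, was at least 1.5-fold higher on 218382_s_at at 352 in anti-MYCN PNA, 190 in mutated PNA and 220 in untreated cells. Its brighter probe set 218381_s_at read 1899, 1961 and 1730 and lay between the controls. U2AF1, its partner that reads the AG at the intron's end, read 6845, 6710.5 and 7346, also between them. SF3B4 and SF3B5 were above both controls by 0.13 and 0.08. SF3B3 was on opposite sides on its 2 probe sets, at 316, 230 and 267 on 200688_at and 1814, 1853 and 1960 on 200687_s_at.

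PRPF proteins act mainly in the tri-snRNP and in the complex around PRPF19 that activates the spliceosome. Their 12 probe sets, of 9 genes, had a median log2 difference of -0.08 with 2 lower calls (16.7%) and none higher, against 8.06% and 8.07% of all probe sets. This is the smallest group. PRPF38B, a factor related to the tri-snRNP protein PRPF38A, read 251 in anti-MYCN PNA, 414 in mutated PNA and 389 in untreated cells. PRPF39, which in yeast belongs to the U1 particle, read 205, 319 and 316. PRPF18, a second-step factor, read 474, 672 and 710 on 221547_at, short of the threshold at -0.50. The large core protein PRPF8 lay on the other side at 2464, 1804 and 1942, a difference of 0.34, and PRPF6, a bridge within the tri-snRNP, was above both on 2 probe sets by 0.29 and 0.26. PRPF4 was above both on 209161_at by 0.25 and between them on 209162_s_at. PRPF3, PRPF19 and PRPF31 were within 0.10 of the nearer control or between the controls. The 2 called and PRPF18 are thus not among the tri-snRNP proteins named here. Those were above the controls, between them or within 0.10 of the nearer one. This split is not one of the role groups. Under scaling to a common median 4 of the 12 PRPF probe sets were above both controls and 8 below. The 8 included PRPF3, both probe sets of PRPF31 and 1 of PRPF4.

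Genes with several probe sets were compared within themselves, because these genes have alternative 3′ ends and a probe set reports only the transcripts that contain its target. Signals of different probe sets are not levels on one scale, so only their differences between arrays were set side by side. Of the 57 genes, 33 had at least 2 probe sets compared, 91 in all and up to 5 a gene. The range of the log2 difference to the mean of the controls over the probe sets of a gene had a median of 0.42, against 0.38 over all 2179 genes with at least 2. In mutated PNA against untreated the median range was 0.21, against 0.23 over all. A range of at least 1.5-fold was found in 10 of 33 genes (30.3%), near the 29.9% of all genes. Between the controls it was found in 2 of 33 (6.06%), against 11.5% of all. Probe sets of splicing genes thus disagreed about as often as those of other genes.

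The 10 genes with the widest ranges were SRSF11, SRSF10, HNRNPL, SRSF7, U2AF2, HNRNPA3, HNRNPC, HNRNPU, SRSF3 and HNRNPA1, from 0.92 down to 0.59. In SRSF11, SRSF10 (where 1 probe set was level with mutated PNA), HNRNPA3, SRSF3 and HNRNPA1 no probe set compared was above both controls. These ranges thus show unequal size in 1 direction. For HNRNPA1 that covers only the probe sets that name it alone, since those shared with its pseudogenes were above both. In HNRNPL, HNRNPC and HNRNPU probe sets lay on opposite sides, although no HNRNPC probe set was above both controls with quantile normalization or with scaling to a common median. HNRNPC, which binds uridine-rich tracts and blocks cryptic exons, was below both controls on 200014_s_at at 3922 in anti-MYCN PNA, 5489 in mutated PNA and 5715 in untreated cells, on 200751_s_at at 3548, 4609 and 4570 and on 212626_x_at at 7143, 8343 and 7908. On 214737_x_at it was above both at 9439, 8462 and 8889. HNRNPU, a scaffold protein of the nuclear matrix, read 8399, 7308 and 7308 on 200594_x_at and 104, 118 and 167 on 216855_s_at, where the controls were 0.50 apart.

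**Figure D4:**
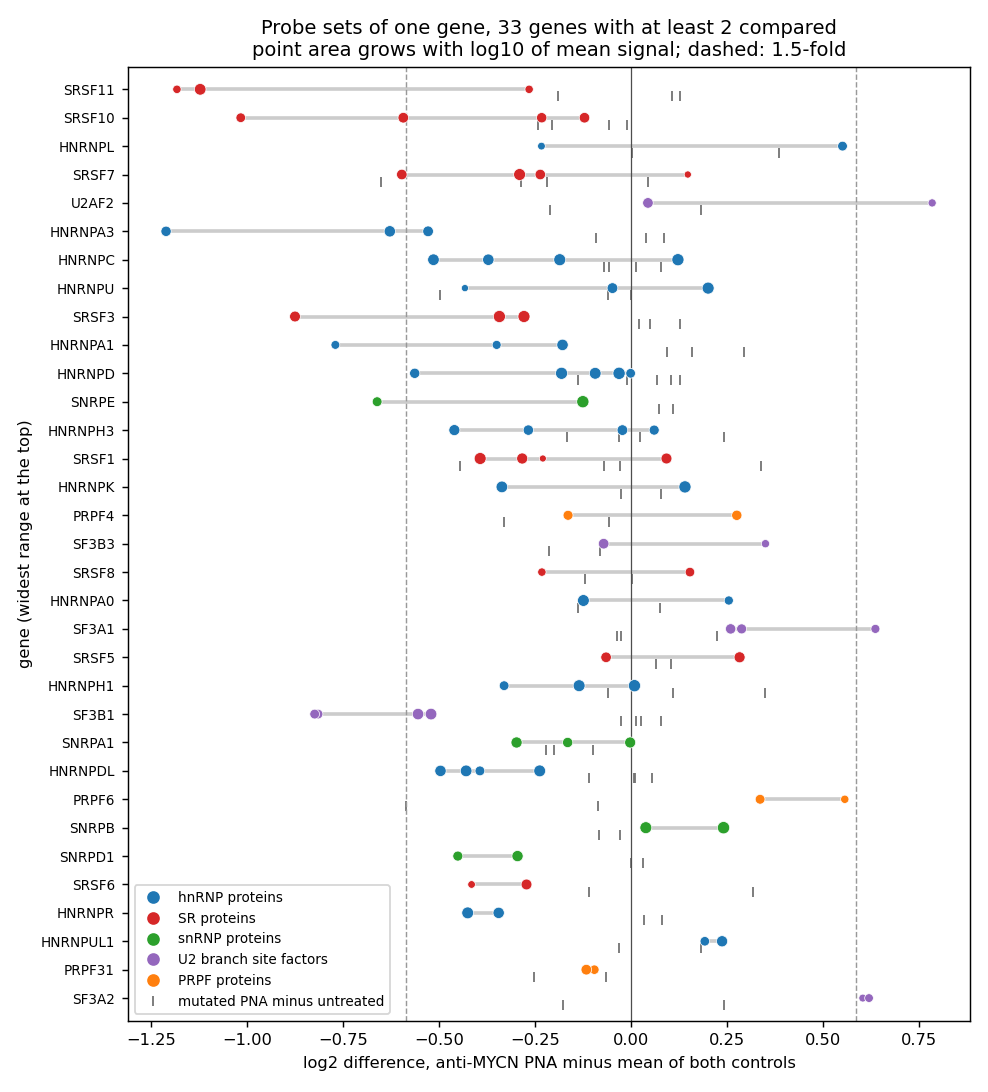
Anti-MYCN PNA signal relative to mean control signal, as a log2 difference, for each probe set (points) of the 33 splicing genes with at least 2 probe sets compared, ordered by range, with grey ticks for mutated PNA minus untreated. All points of SF3B1 lie between -0.82 and -0.52, whereas those of SRSF11 run from -1.18 to -0.27 and those of HNRNPL lie on both sides of 0.

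All probe sets compared lay below both controls in 11 of 33 genes (33.3%) and above both in 5 (15.2%), against 23.9% and 24.8% of all genes with at least 2. Probe sets that name several genes, such as those of HNRNPA1 above both controls, are not counted. Probe sets on opposite sides were found in 9 (27.3%), near the 24.6% of all. The 11 were SRSF11, SRSF10, SRSF3, SRSF6, HNRNPA1, HNRNPA3, HNRNPDL, HNRNPR, SF3B1, SNRPD1 and SNRPE, and the 5 were SF3A1, SF3A2, PRPF6, SNRPB and HNRNPUL1, of which SF3A2 and PRPF6 alone kept every probe set above both under scaling to a common median. Within a gene, the probe set of lowest mean signal was lower than that of highest mean signal in 20 of 33 genes (60.6%), with a median gap of -0.16, against 51.9% and -0.02 over all genes. Between the controls the same order was found in 19 of 33 (57.6%), against 52.5% of all, with a median gap of -0.05. The gap was widest in HNRNPL at -0.78, HNRNPU at -0.63, HNRNPA1 at -0.59 and HNRNPA3 at -0.58, and it ran the other way in SRSF11 at 0.86 and U2AF2 at 0.74. With the brightest probe set of each gene alone, the median over 57 genes was 0.01 and 4 genes were lower (7.02%, against 7.37% of all): SRSF11, HNRNPA3, PRPF38B and PRPF39.

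Probe sets that name several genes, left out of the counts, gave further family members. HNRNPH2, shared with a readthrough of RPL36A, read 625 in anti-MYCN PNA, 957 in mutated PNA and 939 in untreated cells, 1.5-fold lower than both at -0.59. SRSF2, whose probe sets also name the microRNA MIR636, was above both controls on 200754_x_at at 12438, 9113 and 9973 and on 214882_s_at at 8396, 6695 and 6436, and below both on 200753_x_at at 2834, 3139 and 3291. SRSF9 was below both on its 2 probe sets by -0.21 and -0.13. SNRPN, an imprinted Sm protein gene shared with SNURF, read 2889, 2309 and 2323 on 201522_x_at and was level on 206042_x_at at 1340, 1361 and 1378. The 2 further probe sets past the filter that name SNRPN among several genes, 213447_at and 221974_at, were below both by -0.18 and -0.19. The 8 single-gene probe sets below the filter had no signal over 120, and 3 of them were below the floor of 23.4 on all 3 arrays.

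Among splicing genes with symbols other than those followed here lower calls also outnumbered higher ones. Some of them, such as SYNCRIP and SNRNP70, are hnRNP or snRNP proteins too, so they are not a set apart from the families. From a list of 123 such genes, 97 were compared on 194 probe sets, with a median log2 difference of -0.04, 22 lower calls (11.3%) and 5 higher (2.58%), against 8.06% and 8.07% of all. The furthest below were BCLAF1 at 135 in anti-MYCN PNA, 406 in mutated PNA and 339 in untreated cells, and the muscleblind proteins MBNL1 at 153, 386 and 343 and MBNL2 at 284, 552 and 562. The furthest above were DDX17, an RNA helicase, at 254, 95.5 and 117, KHSRP at 706, 316 and 360, both by _x_at probe sets, and CELF1 at 726, 416 and 413 on 221742_at. For DDX17 both controls were below the filter. Other probe sets of these genes did not follow: CELF1 was at least 1.5-fold lower on 204113_at at 105, 247 and 163 and near the controls on the other two, and DDX17 was below both on 213998_s_at by -0.35 and above both on 208718_at by 0.07. KHSRP was above both on its other probe set by 0.20. All 4 probe sets of BCLAF1 and all 3 of MBNL1 were below both. Of 20 cleavage and polyadenylation factors, which set 3′ ends, 15 were compared on 24 probe sets, with a median of -0.32, 5 lower calls (20.8%) and 1 higher (4.17%). RBBP6, a large scaffold of the cleavage complex, read 283, 582 and 521 on 212781_at. PAPOLA, a poly(A) polymerase, read 258, 468 and 584 on 212720_at and was below both on all 4 probe sets. CSTF1 was lower on 32723_at at 299, 805 and 658 and between the controls on 202190_at at 1091, 1022 and 1147. CSTF2T was above both on 212901_s_at at 232, 134 and 85.3 and below both on its other probe set, and CPSF7 and PABPN1 were above both by 0.41 and 0.25.

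The 2 controls were close in nearly all splicing genes. Lowest in mutated PNA relative to untreated cells were SRSF7 on 211439_at at 99.2 against 156, the only one past 1.5-fold, and PRPF6 on 208879_x_at at 194 against 291. HNRNPU on 216855_s_at, SRSF1 on 208863_s_at and PRPF4 on 209162_s_at followed at -0.50, -0.44 and -0.33. The furthest above were HNRNPUL2 at 0.48, HNRNPL at 0.38, HNRNPH1 on 213619_at at 0.35, SRSF1 on 201741_x_at at 0.34 and SRSF6 on 206108_s_at at 0.32. SRSF1 appears at both ends, by different probe sets. Of these 10 probe sets, SRSF7, PRPF6, HNRNPU, HNRNPUL2, SRSF1 on 201741_x_at and SRSF6 had mean signals under 529, where 95% of all probe sets differed by up to 0.71 between the controls.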

How the data were processed

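Total RNA was labelled by the one-cycle protocol and hybridised to 1 Affymetrix array per condition, per the labels' protocols. The authors deposited 1 linear signal intensity for each probe set, and the submitters' processing notes name MAS5 and GCOS. MAS5 scales each array by 1 factor, which leaves differences in distribution: median signals were 127 for anti-MYCN PNA, 112 for mutated PNA and 111 for untreated cells. Here each array was scaled to a shared 2% trimmed mean, the pooled 25th percentile (23.4) served as a floor, and values were log2-transformed. A probe set was called when the smaller of its 2 log2 differences to the controls, of one sign, was at least 1.5-fold. Probe sets were named through a platform annotation of GEO. The members and lists were chosen with earlier results of these data known. Named were MYCN, the 12 furthest each way, the brightest 3 genes and furthest 2 each way per role group, genes whose probe sets span 1.5-fold, the furthest 5 each way between the controls and 3 each way of the other 2 lists. Others named complete a family and were chosen after their values were seen. The call was tested on simulated data. Python 3.11.15, numpy 2.4.6, pandas 2.3.3 and matplotlib 3.10.9 were used. Detection calls and scanner files were not used here, and the number of arrays limits the precision.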

Additional observations from a re-analysis of the deposited data

Results flagged for a closer look

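One probe set outside the comparisons stood above the controls. The pseudogene HNRNPA3P1, on probe set 206808_at, read 75.1 in anti-MYCN PNA cells, 8.4 in mutated PNA and 9.5 in untreated cells. Both control values are below the floor of 23.4, so the smaller log2 difference of 1.68 was taken against that floor, and the mean signal was below the filter. The cause was not tested.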

How the results depend on the processing

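The 14 called probe sets kept their direction with the deposited signals unscaled, with quantile normalization or median scaling, without filter or floor, and with a pseudocount of 16, and 12 of them were still called under quantile normalization and under median scaling. Median scaling moved the median of all probe sets to -0.15, and members lay -0.16 below it. It gave 0 higher and 25 lower calls (21.7%, against 15.0% of all), a median of -0.31 for all members, and medians of -0.37 for hnRNP, -0.46 for SR, -0.25 for snRNP, 0.021 for U2 branch site and -0.27 for PRPF proteins. A 2-fold threshold gave 0 higher and 4 lower, and a lower one gave 8 and 29. With a filter at the 75th percentile 0 were higher, against 4.5% of all, and the U2 branch site median was 0.0442. Without _x_at and _s_at probe sets 0 were higher and 7 of 39 lower (17.9%, against 9.52% of all), 1 gene had probe sets on opposite sides, and the hnRNP, U2 branch site and PRPF medians were -0.29, 0.35 and -0.30. With 1 probe set per gene, that of highest signal, 0 were higher and 4 lower (7.02%), against 8.27% and 7.37% of all. The median there turned to 0.0091 for all members and to 0.0309 for hnRNP proteins. With the median over probe sets 1 was higher (1.75%) and 5 lower (8.77%), against 7.96% and 6.86% of all, and the hnRNP median was -0.0707. These 2 use fewer values by construction. Quantile normalization left 5 genes with probe sets on opposite sides, where the main setting gave 9 of 33 (27.3%). No share of all genes is given beside these 5, or beside the 1 gene without _x_at and _s_at probe sets. Neither count is therefore read against the background. Without SRSF10, SRSF11, SF3B1 and HNRNPA3, an alternative chosen after seeing the data, 5 of 101 were lower (4.95%), against 8.06% of all. Each gene left out held a lower call, so a drop was fixed in advance. A median was taken as moved at 0.1. Apart from the alternatives named, the cause was not tested. All 531 values of 67 named probe sets under the alternatives moved by less than the SD of the control difference over all probe sets compared (0.30). That limit is wide. Over splicing probe sets the SD was 0.17, and median scaling moved the member median from -0.12 to -0.31. Staying within 0.30 therefore says little about stability. No paired analysis was possible because each condition has 1 array.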
